A study of Mus musculus with 11 samples.

Results

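The subunits of the cytosolic chaperonin TRiC/CCT are described here across 11 RNA-seq libraries of mouse soleus and quadriceps. The members were the 8 gene symbols Tcp1, Cct2, Cct3, Cct4, Cct5, Cct6a, Cct7 and Cct8, taken by name. All 8 are among the 13121 genes of the soleus table and the 12366 genes of the quadriceps table, and all 8 passed the filter on low values in both. The libraries were made from total RNA of frozen muscle of mice aged 2.5 months. In the Myc-labelled groups a tetracycline-type system was switched on with doxycycline overnight to raise Myc, and the muscles were taken 12 hours after the drug was withdrawn. These groups hold 4 soleus and 2 quadriceps libraries. The control groups hold 3 soleus and 2 quadriceps libraries from mice of the same age. The labels do not give the controls' genotype or whether they received doxycycline. They also do not name the promoter that drives the system, so the cells of the muscle in which Myc was switched on are not known from them. Nothing in the labels says that libraries of a group came from separate animals, so the p-values reflect only how far these libraries scatter, and soleus and quadriceps libraries were treated as independent.

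TRiC/CCT is a barrel of back-to-back rings, and each ring holds 8 different but related subunits in a fixed order. Newly made proteins enter the cavity, the subunits bind and split ATP, and a built-in lid closes over the substrate while it folds. Actin and tubulin are its best known substrates, with WD40 proteins such as G protein beta subunits and Cdc20, and in muscle it stands beside Hsp90 and Unc45b, which fold myosin. All 8 subunit transcripts were higher in the Myc-labelled soleus libraries, by 1.46-fold (Cct8) to 2.19-fold (Cct5). All 8 also lay higher in both Myc-labelled quadriceps libraries than in either control, as did 18.3% of genes tested there. The folds ran from 1.30 (Tcp1) to 1.87 (Cct5). None of these quadriceps differences passed the test across all genes in a fit of that muscle alone.

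The 8 genes lie on 8 different chromosomes (Tcp1 on 17, Cct2 on 10, Cct3 on 3, Cct4 on 11, Cct5 on 15, Cct6a on 5, Cct7 on 6 and Cct8 on 16). RefSeq start-site windows of 300 bases (250 before and 50 after an annotated start, build GRCm38.p6) matched 7 of the 8 genes, all but Cct4, with 9 windows between them. Shown are Cct5 and Cct6a, whose log2 changes in soleus were the highest of the 8, Cct8, whose change was the lowest, and the windows of Cct3 and Cct2 that hold the rarer motif matches. Each reads 5′ to 3′ on the gene's strand, with every match to a searched motif in capitals.
Cct5 (chr15:31601797-31602096, minus strand): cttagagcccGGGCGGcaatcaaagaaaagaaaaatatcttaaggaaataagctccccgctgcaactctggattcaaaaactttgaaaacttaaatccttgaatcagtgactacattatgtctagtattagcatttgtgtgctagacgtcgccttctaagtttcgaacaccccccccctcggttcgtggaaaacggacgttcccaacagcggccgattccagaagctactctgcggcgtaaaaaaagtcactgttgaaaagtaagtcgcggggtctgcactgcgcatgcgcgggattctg
Cct6a (chr5:129787106-129787405, plus strand): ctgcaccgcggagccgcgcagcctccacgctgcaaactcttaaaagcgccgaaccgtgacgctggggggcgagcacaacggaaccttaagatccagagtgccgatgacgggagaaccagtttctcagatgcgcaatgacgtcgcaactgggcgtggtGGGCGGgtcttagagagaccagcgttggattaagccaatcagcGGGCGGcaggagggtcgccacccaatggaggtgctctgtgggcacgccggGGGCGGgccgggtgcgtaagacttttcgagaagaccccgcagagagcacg
Cct8 (chr16:87495820-87496119, minus strand): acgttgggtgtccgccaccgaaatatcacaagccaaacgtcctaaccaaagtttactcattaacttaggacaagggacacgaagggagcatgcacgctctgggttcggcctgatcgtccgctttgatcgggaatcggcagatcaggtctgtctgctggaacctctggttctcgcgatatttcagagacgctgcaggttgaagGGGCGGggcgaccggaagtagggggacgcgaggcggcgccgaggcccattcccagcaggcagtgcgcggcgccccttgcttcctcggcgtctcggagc
Cct3 (chr3:88296885-88297184, plus strand): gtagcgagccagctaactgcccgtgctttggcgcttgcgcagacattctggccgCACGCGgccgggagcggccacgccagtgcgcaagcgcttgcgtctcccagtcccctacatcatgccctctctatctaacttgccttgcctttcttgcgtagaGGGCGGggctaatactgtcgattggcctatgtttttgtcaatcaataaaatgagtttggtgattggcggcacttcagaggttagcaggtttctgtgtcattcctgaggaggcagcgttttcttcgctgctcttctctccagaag
Cct2 (chr10:117063326-117063625, minus strand): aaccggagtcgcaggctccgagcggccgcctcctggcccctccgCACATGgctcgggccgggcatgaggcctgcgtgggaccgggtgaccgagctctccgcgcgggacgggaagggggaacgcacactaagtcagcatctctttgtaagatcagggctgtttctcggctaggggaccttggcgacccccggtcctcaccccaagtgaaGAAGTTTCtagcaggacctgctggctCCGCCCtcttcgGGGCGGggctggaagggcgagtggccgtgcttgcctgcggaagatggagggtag
The motifs were searched on both strands. CACGTG, the canonical E-box bound by Myc with Max, was in the windows of 0 of the 7 matched subunits, against 12.0% of the 10138 tested genes with a window. This says only that these letters are not in these windows. The variant CACGCG was in 1 subunit (Cct3, starting 196 bases before the start) against 20.1% of tested genes. The variant CATGTG was in 2, Cct2 (as CACATG in the window shown) and a second window of Cct5 not printed, against 10.4%. GAANNTTC, the core of a heat-shock element, was in 1 subunit, against 6.8%. This was Cct2, as GAAGTTTC in the window shown, starting 42 bases before that window's annotated start site. The other Cct2 window, at a start site further upstream, held no such match. GGGCGG, the GC box, was in 7 of 7, against 68.6% of tested genes. GGGCGG stood 1 time in the Cct8 and Cct5 windows shown and 3 times in that of Cct6a. The 9 windows held 19 to 30 CpG dinucleotides, beside a median of 20 in windows of tested genes and 7 in all 32851 windows. A match describes letters and is not a measured binding site.

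Deposited values are normalised read counts, that is estimated reads divided by a size factor for each library. Estimated depth was 11.1 to 14.9 M reads in soleus and 14.2 to 18.4 M in quadriceps, and each of the 88 subunit values rested on 988 to 4415 estimated reads. Libraries of every group held the fibre markers Acta1 and Ckm at high level. The row of Myc itself, the gene the system is built to raise, was not higher: it held 30.0, 54.3 and 28.2 in the soleus controls, and 26.3, 31.0, 28.8 and 27.7 in the Myc-labelled libraries. In quadriceps it held 114 and 55.7, and then 86.4 and 33.6. It therefore gives no check of the groups, and the directions that follow rest on the labels alone. Over 10 lists of cell type markers, limma called 0 of 61 genes in soleus and 0 of 61 in quadriceps. At an unadjusted p under 0.05, 1 marker was higher and 8 were lower in soleus, where 12.9% and 8.77% of all genes were. In quadriceps 0 were higher and 2 lower, the slow-fibre genes Myh7 and Tnnt1, where 2.24% of all genes were lower.

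In soleus, Cct5 (epsilon subunit, altered in a hereditary sensory neuropathy) stood at 1438, 1412 and 1323 normalised reads in the controls, and at 2899, 2894, 3105 and 3310 in the Myc-labelled libraries. Its log2 change was 1.13 (SE 0.093), the highest of the 8. Cct6a (zeta subunit) went from 1412, 1361 and 1671 to 3071, 2736, 3146 and 3416, a log2 change of 1.06 (SE 0.11). Control 3 was the highest control of Cct6a and still lay well under the lowest Myc-labelled library. Cct3 (gamma subunit), with the fewest reads of the 8 in every soleus control, stood at 1138, 1074 and 1204, and then at 2271, 2089, 2227 and 2564, a log2 change of 1.003 (SE 0.099). These are the 3 subunits that rose at least to about double their control mean, with folds of 2.19, 2.09 and 2.01.

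Cct2 (beta subunit) measured 1918, 1514 and 1798 in the soleus controls and 3250, 3013, 3339 and 3351 in the Myc-labelled libraries, a log2 change of 0.90 (SE 0.10). Cct4 (delta subunit) measured 1568, 1497 and 1311 against 2695, 2416, 2628 and 2648, a log2 change of 0.83 (SE 0.096). Library 2 of the Myc-labelled soleus was the lowest of its group for both. Cct7 (eta subunit) measured 1535, 1471 and 1457 against 2411, 2288, 2388 and 2441, a log2 change of 0.68 (SE 0.088). Tcp1 (alpha subunit, the founding member, named for the mouse t-complex) measured 2827, 2469 and 2402 against 3951, 3696, 4000 and 4076, a log2 change of 0.62 (SE 0.093). Tcp1 had the most reads of the 8 in every soleus library, and a change among the 2 smallest. Cct8 (theta subunit) was the tightest of the 8 in the controls, at 1796, 1848 and 1818 against 2650, 2743, 2571 and 2701, and changed least, by 0.55 (SE 0.087).

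**Figure D1:**
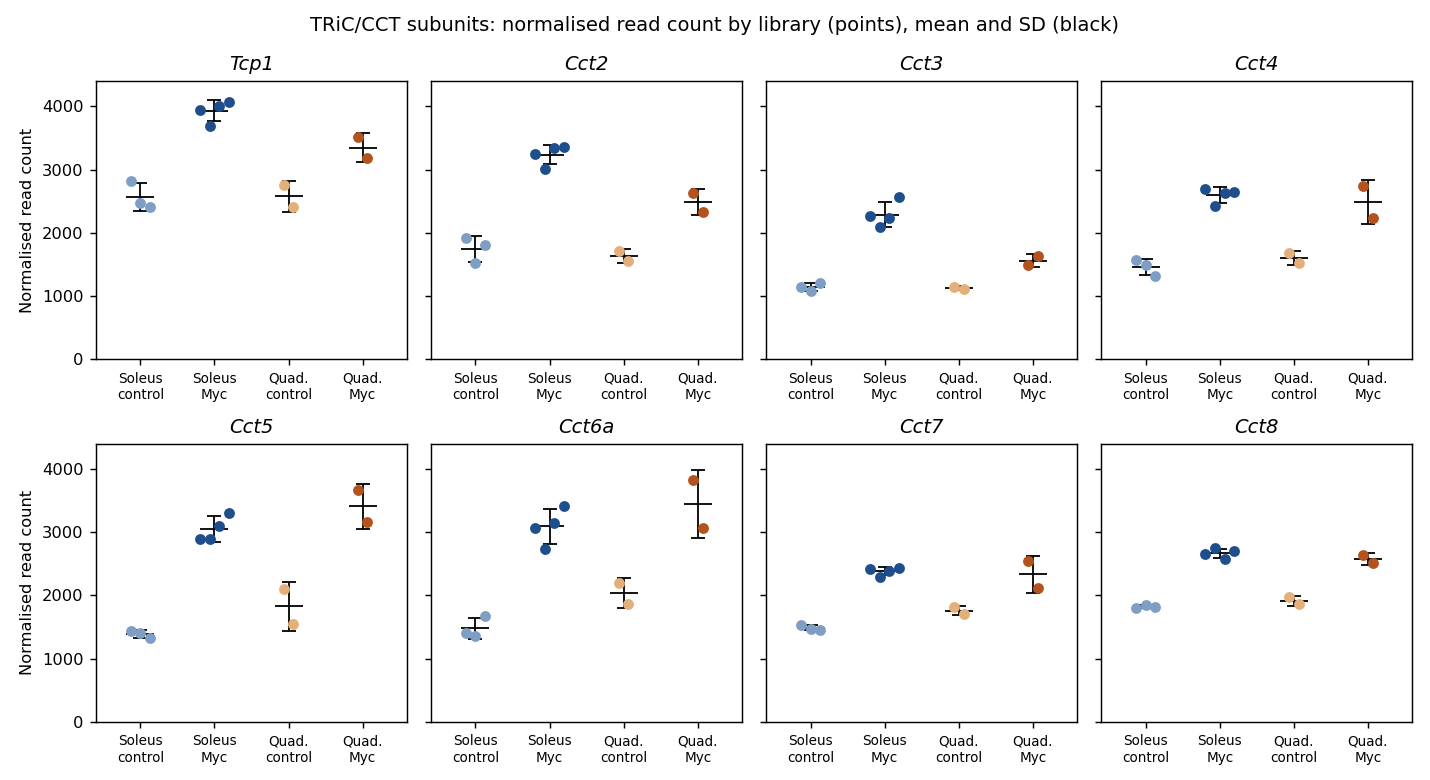
Normalised read count of each TRiC/CCT subunit (vertical axis, linear from 0) in every library, by group along the horizontal axis; points are libraries, and black bars are the group mean and SD. In every panel the 4 Myc-labelled soleus points sit above the 3 soleus controls, and the 2 Myc-labelled quadriceps points above the 2 quadriceps controls.

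All 8 subunits passed an adjusted p under 0.05 as higher in soleus (limma, moderated across all genes, Benjamini-Hochberg over 12745 genes), against 7.06% of genes tested. Adjusted p ran from 8.6e-07 (Cct5) to 0.00052 (Cct8). For each of the 8 every Myc-labelled library lay above every control, which held for 12.7% of genes. The median log2 change of the 8 was 0.87, against -0.03 over all genes. The changes were large for the table without being at its top: Cct5 ranked 293 of 12745 by log2 change and Cct8 1128. Summed over the 8, the signal went from 13087 ± 501 (SD, n = 3) to 23246 ± 1080 (SD, n = 4) normalised reads, or 1.78-fold, with 12646 to 13631 in the controls and 21875 to 24508 in the Myc-labelled libraries. Scaled to a summed library value of 1e6, the means were 1001 and 1835.

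Some marker lists had lower values in Myc-labelled soleus libraries, the tendon list in all 4 of them by its sum, although no marker was called. The summed tendon markers ran from 7415 to 9024 in the controls and stood at 7289, 6467, 2155 and 3462 in the Myc-labelled libraries 1 to 4, with 4 of 8 genes lower at an unadjusted p under 0.05, against 8.77% of all genes. The summed fibroblast markers ran from 15852 to 24527, and then stood at 20548, 20227, 6662 and 9991. The summed erythroid markers ran from 7444 to 7704, and then stood at 6002, 7523, 4305 and 3277. The summed endothelial markers ran from 6218 to 7417 in the controls and from 5230 to 6428 in the Myc-labelled libraries, with 0 of 6 genes above 0 in log2 change and 1, Kdr, lower at an unadjusted p under 0.05. Genes above 0 were 0 of 8 in the macrophage list, 0 of 6 in the adipocyte list and 1 of 4 in the satellite-cell list. The Schwann-cell list went the other way, with 6 of 6 above 0. In these 4 lists the sums of the 2 groups overlapped. Of the 9 fibre markers 2 lay above 0, and Acta1 and Ckm were lower at an unadjusted p under 0.05 in limma. Acta1 held 540877 to 637118 in the controls and 490460 to 512102 in the Myc-labelled libraries. Myc-labelled libraries 3 and 4 are the lowest ones in the tendon, fibroblast and erythroid lists. The subunit sum stood at 23404 and 24508 in them, and at 23198 and 21875 in libraries 1 and 2. Without libraries 3 and 4 together all 8 subunits were called higher. The Myc-labelled libraries that this fit kept also held tendon sums below every control, so it does not set cell content apart. The part of cell content in the subunit changes was not tested. In whole muscle, fewer cells of a type and less RNA per cell cannot be told apart.

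In quadriceps, Cct5 stood at 2096 and 1553 in the controls and at 3665 and 3159 in the Myc-labelled libraries, a log2 change of 0.91 (95% interval 0.43 to 1.40, adjusted p from limma 0.38). Cct6a followed, with 2200 and 1866 against 3827 and 3065, a log2 change of 0.76 (0.30 to 1.22, adjusted p 0.46). The same 2 subunits had the highest log2 changes in both muscles. Cct4 measured 1684 and 1518 against 2737 and 2234 (log2 change 0.63). Cct2 measured 1712 and 1558 against 2632 and 2336 (0.60). For both, the gap between the groups was wider than the gap between the libraries of either group. Cct3 measured 1147 and 1105 against 1482 and 1634 (0.47), and Cct8 1973 and 1860 against 2647 and 2512 (0.43). Cct7 measured 1815 and 1706 against 2540 and 2123 (0.40). Tcp1 measured 2753 and 2402 against 3511 and 3186, the smallest log2 change of the 8 at 0.38 (-0.04 to 0.80, adjusted p 0.84). Only for Cct7 and Tcp1 did the 95% interval of the change include 0.

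For all 8 subunits both Myc-labelled quadriceps libraries lay above both controls, as for 18.3% of genes tested. None of the 8 passed an adjusted p under 0.05 in limma on the 4 quadriceps libraries, where 0.00815% of genes did (1 of 12270), and limma-voom called 0 as well. At an unadjusted p under 0.05, 6 of 8 were higher (all but Tcp1 and Cct7), against 3.97% of genes. The median log2 change was 0.53, beside -0.03 over all genes. In 1 fit over all 11 libraries, which shares 1 estimate of spread between the muscles, 2 of 8 were called higher in quadriceps, Cct5 (adjusted p 0.012) and Cct6a (0.039), against 0.643% of genes. Over all 14 alternatives the adjusted p of Cct5 ran from 0.012 to 0.999 and that of Cct6a from 0.039 to 0.999. The summed signal of the 8 went from 14473 ± 1281 to 21645 ± 1974 (SD, n = 2 each), or 1.496-fold. The slow-fibre genes Myh7 and Tnnt1 were lower in the Myc-labelled libraries here, though neither was called. Myh7 held 9731 and 76136 in the controls but 174 and 156 in the Myc-labelled libraries. Of the 9 fibre markers tested, 3 lay above 0 in log2 change, among them Myh4 (0.12) and Ckm (0.02). The part of the slow-fibre genes in the subunit differences was not tested.

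**Figure D2:**
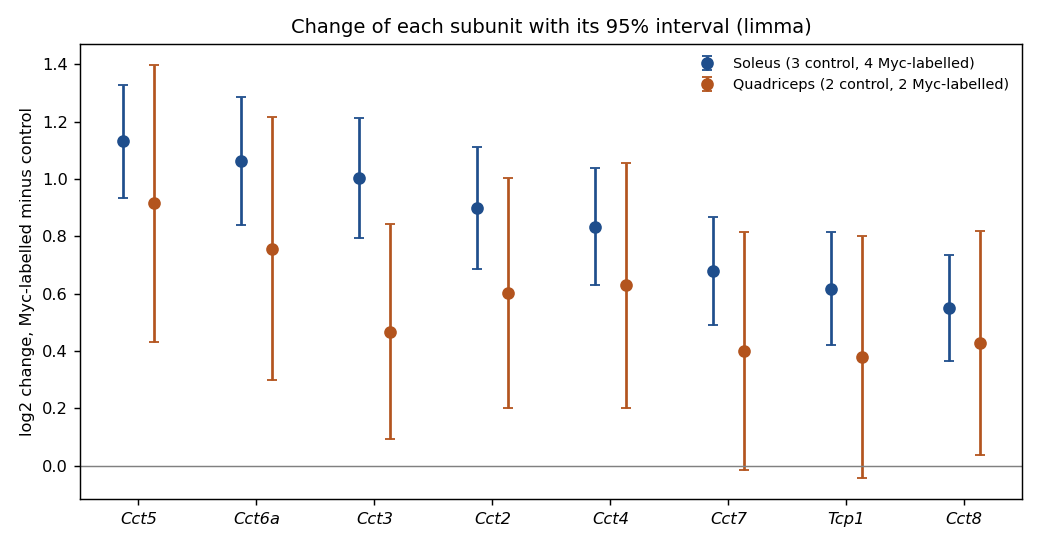
log2 change of each subunit, Myc-labelled minus control (vertical axis), with its 95% interval from limma, in soleus (blue) and quadriceps (orange), ordered along the horizontal axis by the change in soleus. All soleus intervals lie above 0, the quadriceps intervals are wider, and those of Cct7 and Tcp1 reach below 0.

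The difference between the muscles, the change in soleus minus that in quadriceps, was positive for all 8 subunits, from 0.12 (Cct8) to 0.54 (Cct3) on the log2 scale. None passed the adjusted threshold in limma over the 11 libraries, where 0% of the 11971 genes did, and limma-voom called 0. At an unadjusted p under 0.05, 1 of 8 differed, against 3.18% of genes: Cct3, with a difference of 0.54 (95% interval 0.18 to 0.89, unadjusted p 0.0055, adjusted p 0.999). The other 7 intervals included 0, with upper bounds from 0.43 (Cct8) to 0.73 (Cct6a), so no difference between muscles was detectable for them with these libraries. Across the 8 genes, the order of the changes was alike in the 2 muscles (Spearman's rho 0.83, Pearson's r 0.83, n = 8 genes of 1 complex, which are not independent replicates).

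Per kilobase of annotated transcript, the scale on which genes can be compared, the soleus control levels ran from 576 ± 33 (Cct3) to 1049 ± 93 (Tcp1) normalised reads per kilobase (SD, n = 3). Every subunit lay above at least 89.6% of the genes with a length. Below Tcp1 came Cct2 (890 ± 106), Cct8 (760 ± 11) and Cct5 (751 ± 32), the last pair with overlapping libraries. Cct7, Cct6a, Cct4 and Cct3 formed a lower set from 609 down to 576, each overlapping its neighbour. In the Myc-labelled soleus libraries Cct2 (1653 ± 80), Cct5 (1647 ± 107) and Tcp1 (1607 ± 67) shared the top with overlapping values. Cct6a (1260 ± 114), Cct3 (1157 ± 101), Cct8 (1114 ± 31), Cct4 (1045 ± 50) and Cct7 (976 ± 27) followed, again with neighbours overlapping. Cct7 was thus the lowest subunit in all 4 Myc-labelled soleus libraries, and in none of the 3 controls. In quadriceps, Cct3 was lowest in all 4 libraries, at 570 ± 15 in controls and 788 ± 54 in Myc-labelled libraries. Cct5 was the highest in control 1 and in both Myc-labelled libraries, where its mean was 1842 ± 193.

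Each subunit's share of the summed signal of the 8 does not depend on the library's scaling. In soleus the share of Tcp1 was 19.6 ± 1.1% in controls and 16.9 ± 0.2% in Myc-labelled libraries, and that of Cct8 13.9 ± 0.7% and 11.5 ± 0.7%. Cct7 held 11.4 ± 0.2% and then 10.3 ± 0.2%. For these 3 subunits, the ones with the smallest changes, control and Myc-labelled libraries did not overlap. Cct5 took 10.6 ± 0.5% and then 13.1 ± 0.4%, and Cct3 8.71 ± 0.50% and then 9.83 ± 0.44%, again without overlap, in the other direction. The shares of Cct6a (11.3 and 13.3%), Cct2 (13.3 and 13.9%) and Cct4 (11.1 and 11.2%) overlapped between groups. In quadriceps, Tcp1 (17.8 and 15.5%), Cct7 (12.2 and 10.8%) and Cct8 (13.3 and 11.9%) also held smaller mean shares in the Myc-labelled libraries. Cct5 (12.5 and 15.8%) and Cct6a (14.0 and 15.9%) held larger ones, and Cct3 did not, at 7.80 and 7.25% with overlap. These shares follow from the levels above and were given no test.

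**Figure D3:**
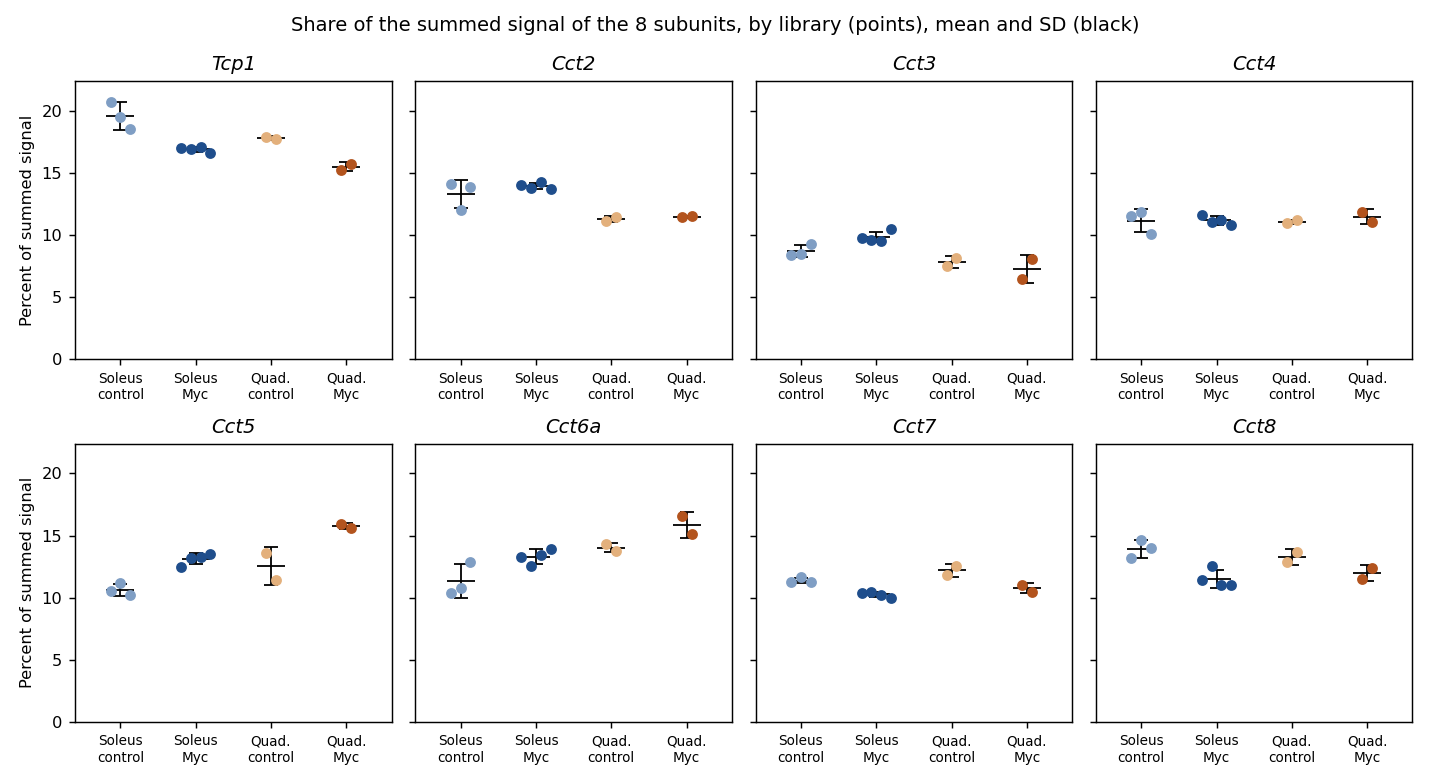
Each subunit's percent of the summed signal of the 8 subunits (vertical axis, from 0) in every library, by group; points are libraries, and black bars are the mean and SD. The share of Tcp1 is lower and that of Cct5 higher in the Myc-labelled libraries of both muscles, while that of Cct4 stays near 11%.

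Proteins that hand substrates to the chaperonin were counted next. Prefoldin, the hexamer that delivers unfolded actin and tubulin, had 1 of 6 subunits called higher in soleus, against 7.06% of all genes: Pfdn2 (log2 change 0.46, adjusted p 0.047). Pfdn6 (0.26, adjusted p 0.37) and Pfdn5 (-0.11, 0.62) did not pass, and the median of the 6 was 0.02. The call of Pfdn2 was lost without soleus control 1 or 3 or without Myc-labelled library 1, 3 or 4 (adjusted p 0.099 to 0.17), and over 18 alternatives its adjusted p ran from 0.027 to 0.22. The phosducin-like cofactors, which regulate folding by the chaperonin, had 0 of 3 called in limma and limma-voom and 0 at an unadjusted p under 0.05, at 0.16 (Pdcl3), 0.04 (Txndc9) and -0.13 (Pdcl). The chaperonin-related genes of the Bardet-Biedl complex, Mkks, Bbs10 and Bbs12, likewise gave 0 of 3 calls in either tool and 0 at an unadjusted p under 0.05. At that level 12.9% of all genes were higher in soleus and 8.77% lower. All tested prefoldin and phosducin-like genes changed by less than Cct8, the chaperonin subunit with the lowest change (0.55). Of the chaperonin-related genes, Mkks changed by -0.04 (SE 0.12), Bbs10 by 0.57 (SE 0.46) and Bbs12 by 0.06 (SE 0.66). Bbs10 and Bbs12 were low, with control means of 35.6 and 15.0 in soleus, so a change in them was hard to call.

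The R2TP/prefoldin-like complex, which assembles polymerases and other large machines with Hsp90, had 4 of 8 tested members called higher and 0 lower in soleus, against 7.06% and 2.23% of all genes, with a median of 0.44. Its ATPases Ruvbl1 (122 ± 10 to 247 ± 39, log2 change 0.995, adjusted p 0.0023) and Ruvbl2 (214 ± 39 to 409 ± 47, log2 change 0.94, adjusted p 0.00098) were in the range of the chaperonin subunits. Both calls held in all 18 alternatives. Rpap3 (0.54, adjusted p 0.048) and Uri1 (0.42, 0.044) were near the threshold. The call of Rpap3 was lost without any 1 soleus library other than Myc-labelled library 2 (adjusted p 0.057 to 0.17), and its adjusted p ran from 0.032 to 0.17 over 18 alternatives. That of Uri1 was lost without any 1 library other than Myc-labelled library 1 (0.066 to 0.16), with 0.014 to 0.29 over 18 alternatives. In quadriceps Ruvbl1 (0.84, adjusted p 0.46) and Ruvbl2 (0.51, 0.65) were not called.

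The substrates were counted by family. Of 6 actins in soleus, 0 were called higher and 2 lower, where 7.06% and 2.23% of all genes were: the cytoplasmic Actg1 (3013 ± 131 to 2207 ± 307, log2 change -0.46, adjusted p 0.014) and the cardiac actin Actc1 (-0.62, 0.017). The skeletal actin Acta1 (-0.23, adjusted p 0.15) and Actb (-0.26, 0.27) did not pass. The call of Actg1 was lost without soleus control 3 (adjusted p 0.050; 0.011 to 0.065 over 18 alternatives). The call of Actc1 was lost without control 2 or 3 or Myc-labelled library 2 or 4 (0.051 to 0.11) and in 1 fit over all 11 libraries (0.46), with a low of 0.013 over 18 alternatives. Actg1 and Actb are also made by fibroblasts and endothelial cells, whose marker sums in these libraries are given above, and the part of these cells was not tested.

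Of 12 tubulins in soleus, 0 were called in limma or limma-voom, where limma called 7.06% of all genes higher and 2.23% lower. At an unadjusted p under 0.05, 2 were higher and 0 lower, against 12.9% and 8.77% of all genes. The median change was 0.09. Tubb5 (902 ± 138 to 1234 ± 186, log2 change 0.45) just missed the threshold at an adjusted p of 0.052, and passed in 6 of 18 alternatives, over which its adjusted p ran from 0.011 (without Myc-labelled library 3) to 0.20. Tuba1c (0.54, adjusted p 0.13), Tubb6 (0.29, 0.32) and Tubb4b (0.18, 0.38) did not pass. The tubulin cofactors, which join folded alpha and beta tubulin into dimers, gave 0 of 7 calls in both tools, beside the same shares of all genes. At an unadjusted p under 0.05, 1 was higher, Tbcc (0.42, adjusted p 0.20), against 12.9% of all genes. Of 12 other substrates 1 was called higher and 1 lower, beside 7.06% and 2.23% of all genes. Ppp2r2a, a WD40 subunit of the phosphatase PP2A, changed by 0.33 (adjusted p 0.045), a call lost without any 1 soleus library other than Myc-labelled library 1 (0.064 to 0.15; 0.016 to 0.21 over 18 alternatives). Vhl, the tumour suppressor folded by TRiC, changed by -0.88 (adjusted p 0.027), a call lost without control 1 or 2 or Myc-labelled library 2 or 3 (0.053 to 0.11; 0.015 to 0.12 over 18 alternatives). The G protein beta subunits Gnb1 (0.25, adjusted p 0.16) and Gnb5 (-0.55, 0.092) did not pass.

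Other chaperones were counted in the same way. In the mitochondrial chaperonin, which is a separate and simpler barrel, the ring protein Hspd1 rose in soleus from 3120 ± 175 to 5886 ± 526 (log2 change 0.91, adjusted p 1.0e-05). Its lid Hspe1 changed by 0.57 (adjusted p 0.080). Hspe1 passed without soleus control 3 (adjusted p 0.00042) and in limma-voom (0.040), with a high of 0.34 over 18 alternatives. In quadriceps neither passed, at 0.63 (adjusted p 0.54) and 0.59 (0.62), although Hspd1 was called in the fit over all 11 libraries (0.039, beside a high of 0.999 over 14 alternatives). Of 5 myosin-folding genes, 1 was called higher in soleus, against 7.06% of all genes: the inducible Hsp90 gene Hsp90aa1 (803 ± 62 to 1489 ± 203, log2 change 0.88, adjusted p 0.00010). Hsp90ab1 (0.28, adjusted p 0.11) passed with library-size scaling (0.020), in limma-voom (0.017) and without Myc-labelled library 2 (0.049). Its adjusted p ran from 0.017 to 0.48 over 18 alternatives. The myosin chaperone Unc45b (-0.21, 0.22) did not pass.

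Among 8 genes of the heat-shock factor and Hsp70 group, 3 were called higher in soleus and 0 lower, against 7.06% and 2.23% of all genes. Hsph1, a nucleotide exchange factor of Hsp70, changed by 0.63 (adjusted p 0.0030) and held in all 18 alternatives. Its relative Hspa4 changed by 0.46 (0.0097), a call lost without control 2 (0.069; 0.0031 to 0.080 over 18 alternatives). Hsf1, the heat-shock factor, changed by 0.43 (0.015), a call lost without control 3 or Myc-labelled library 4 (0.056 and 0.052; 0.0047 to 0.15 over 18 alternatives). Hsf2 (-0.37, 0.092), Dnajb1 (-0.18, 0.71), Hspa1a (0.02, 0.97) and Hspa1b (0.32, 0.25) were not called. Neither was Hspa8, the constitutive Hsp70 (0.30, 0.052), which passed in 5 of 18 alternatives, among them without Myc-labelled library 3 (0.020, over a range of 0.017 to 0.16). In quadriceps limma called 0 genes in every one of these partner and substrate lists, as did limma-voom. At an unadjusted p under 0.05 4 of 68 were higher there (Ruvbl1, Ruvbl2, Hspd1 and Hspe1), against 3.97% of all genes, and 0 lower, against 2.24%.

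**Figure D4:**
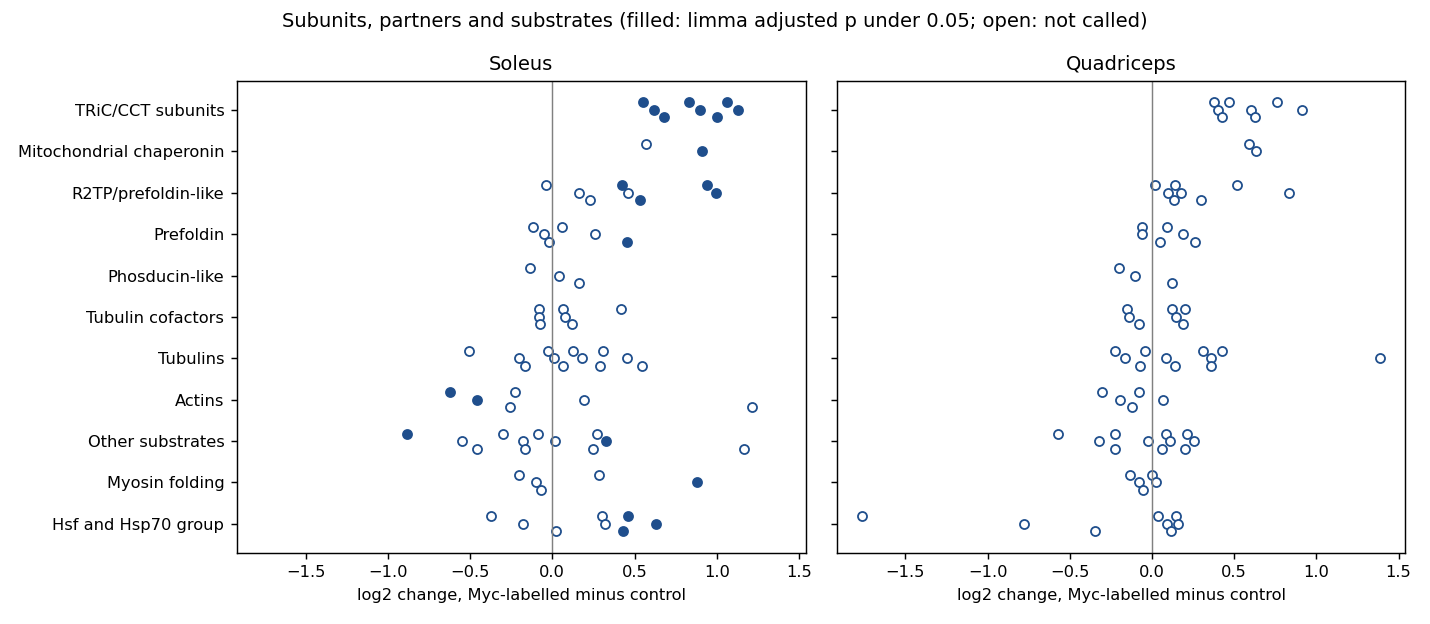
log2 change, Myc-labelled minus control (horizontal axis), of each tested gene in the lists named on the vertical axis, in soleus (left) and quadriceps (right); filled points passed an adjusted p under 0.05 in limma, and vertical offsets only separate points. All 8 chaperonin subunits are filled and lie from 0.55 to 1.13 in soleus, while most actins, tubulins and cofactors are open and lie near 0, and every quadriceps point is open.

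Genes that overlap a subunit gene give a local comparison, which was chosen after the values were seen. By RefSeq, 5 protein-coding genes overlap 4 of the 8 subunits, each on the opposite strand. Without stranded counting, which the sources used here do not state, reads in such an overlap could be counted for either gene. Mrpl18, a mitochondrial ribosomal protein that meets Tcp1 start to start, stood at 1694 ± 131 and 1657 ± 129 in soleus (log2 change -0.03, adjusted p 0.89). Psph, which meets Cct6a start to start, changed by -0.11 (0.85), and Pradc1, which meets Cct7 start to start, by 0.19 (0.74). None of these 3 was called, where limma called 7.06% of all genes higher in soleus and 2.23% lower. Beside those shares, 3 uncalled genes cannot show whether the rise is confined to the subunits. Of the genes that meet a subunit end to end, Acat3 (beside Tcp1) was low, at 32.4 ± 22.4 and 26.0 ± 22.3 (-0.66, 0.71). Usp16, a deubiquitinase beside Cct8, was called higher in soleus at 825 ± 51 and 1099 ± 46 (0.41, 0.013), near the change of Cct8 itself (0.55), over an overlap of 191 bases. The call of Usp16 was lost without soleus control 2 (0.076; 0.0062 to 0.076 over 18 alternatives).

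Genes whose pattern was most like that of the chaperonin were sought among 8901 other genes with a soleus mean of at least 100. The measure was Pearson's r with the mean log2 level of the 8 subunits over the 7 soleus libraries. These libraries fall into the 2 groups compared, so r mostly ranks genes by how cleanly the groups separate. The 5 most alike were Mak16 (r = 0.998), a ribosome assembly factor, Eif3d (0.997) and Eif4a1 (0.997), translation initiation factors, C1qbp (0.997), a mitochondrial matrix protein, and Ran (0.996), the GTPase of nuclear transport. Eif4a1 held 1068, 890 and 965 in the controls and 2361, 2147, 2559 and 2507 in the Myc-labelled libraries (log2 change 1.30). Ran, the least changed of the 5, held 1151, 1158 and 1143 and then 1655, 1586, 1689 and 1748 (log2 change 0.54).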

How the data were processed

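The data are RNA-seq of total RNA from soleus (7 libraries) and quadriceps (4 libraries). The deposited values are a signal per gene and library: read counts the authors divided by 1 size factor per library, which was read from the values and not from a label. In each library 90.9% to 93.4% of the values below 300 reads fell within 0.02 of a whole number of reads. Per the submitters' processing notes the tools were DESeq2, Partek and STAR 2.7.8a, with roles not given, and the builds mm10 and mm39. Strand settings are not given in the sources used here. Each table was scaled apart, so tests were made within a muscle.

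A gene was tested in soleus if 3 libraries reached 10, and in quadriceps if 2 libraries did. limma 3.58.1 (R 4.3.3, statmod 1.5.0) was fitted to log2(value + 1) using robust moderation and a trend of variance on mean over all genes that passed. The log2 changes are on that scale, which understates the change of low genes. Folds are ratios of the group means of the deposited values. P-values were adjusted by Benjamini-Hochberg over all genes tested. The difference between muscles was a contrast of 4 group means over 11 libraries. The share of whole values was below that needed to recover read counts, so edgeR and DESeq2 were not run here, and limma-voom on estimated reads served as an alternative. When the fits were tested on simulated data, false calls exceeded the nominal share in all 3 comparisons. In the quadriceps fit and the contrast of muscles, most changes of 1.5-fold and of 2-fold were missed, more than in soleus. In soleus most changes of 1.5-fold were missed and most of 2-fold were found. The subunits' quadriceps folds, 1.30 (Tcp1) to 1.87 (Cct5), were under 2-fold, so 0 calls there cannot show that nothing changed. Lengths are of the longest GENCODE M21 transcript in the top principal class of the APPRIS annotation. Where a gene has none, its longest protein-coding transcript was used. For Cct6a, which has no protein-coding transcript there, the longest transcript was used. Each promoter window is from RefSeq GRCm38.p6.

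All 8 subunits were named, with at most 4 genes of each partner or substrate list (lowest p in soleus), at most 2 by the p in quadriceps, and the 5 genes most like the subunits. Hspa1b and Dnajb1 were named beyond that rule, so that the whole heat-shock factor and Hsp70 group is given. The members and lists were chosen with earlier results of these data known. The alternatives were library-size and TMM scaling, limma-voom, pseudocounts of 0.5 and 5, no filter and a minimum of 50, no robust moderation, the replicate number as a block, 1 fit over all 11 libraries, leaving out each library, and soleus without Myc-labelled libraries 3 and 4. Replicates differed by more than sampling noise, so none were merged.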

Additional observations from a re-analysis of the deposited data

Results flagged for a closer look

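In 2 of the 68 sets of 4 values of the Myc-labelled soleus group that were examined, 1 library stood apart from the other 3 by more than Dixon's 95% limit. Chance alone gives about 1 in 20 such sets. For Tubb4b, a beta tubulin folded by TRiC, library 1 held 3062 normalised reads and the others 2425, 2364 and 2386, a gap of 0.912 of the range. For Hspa8, the constitutive Hsp70, library 3 held 21010 and the others 23891, 23769 and 23786, a gap of 0.958 of the range. No subunit of the chaperonin showed such a gap.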

How the results depend on the processing

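The count of 8 subunits higher in soleus held in all 18 alternatives, and 144 of 144 refitted soleus changes of single subunits kept their direction and call, with 8 to 8 called when 1 library was left out. In quadriceps the count was 2 rather than 0 in 1 fit over all 11 libraries, and 0 to 0 with 1 library left out. The difference between muscles stayed at 0 throughout, 0 to 0 with 1 library left out. Same-numbered soleus libraries had deviations correlated at 0.0010, 0.076 and 0.14, so the numbers were not taken as a pairing. With the replicate block the counts of subunits called were 8, 0 and 0, and 882 genes were higher and 334 lower in soleus, 1 and 3 in quadriceps, and 20 and 0 for the difference between muscles. Signs turned for genes that were not called: in soleus, Mrpl18 with library-size scaling (0.014) and limma-voom (0.017), Txndc9 with the replicate block (-0.011), and Pdcl without Myc-labelled libraries 3 and 4 (0.15). With 1 library left out the ranges were -0.084 to 0.031 for Mrpl18, -0.045 to 0.12 for Txndc9, -0.50 to 0.16 for Pdcl, -0.056 to 0.28 for Pdcl3, -0.25 to 0.056 for Psph, -0.0005973 to 0.32 for Pradc1 and -1.19 to 0.10 for Acat3. Over all genes, the 900 higher and 284 lower calls in soleus became 1079 and 181 with library-size scaling, 1012 and 188 with limma-voom, 833 and 168 in the fit over 11 libraries, and 481 and 143 without Myc-labelled libraries 3 and 4. They became 732 and 159 without control 1, 657 and 116 without control 2, 775 and 167 without control 3, and 669 and 154 without Myc-labelled library 4. In quadriceps, 1 and 0 became 77 and 17 in the fit over 11 libraries, 36 and 70 without Myc-labelled library 2, 4 and 2 without Myc-labelled library 1, 1 and 6 without control 1, 1 and 2 without control 2, and 0 and 0 with library-size scaling and limma-voom. For the difference, 0 and 0 became 16 and 0 without quadriceps control 1, 7 and 1 without quadriceps control 2, 5 and 1 without Myc-labelled quadriceps library 2, and 4 and 0 with no robust moderation. Where 1 library was left in a quadriceps group, it was assumed to vary like the others. The cause of these shifts was not tested. With 4 libraries, the 95% interval of the quadriceps change of Cct5 ran from 0.43 to 1.40.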
